A study of Mus musculus with 6 samples.

Results

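The genes described here are *Aebp1*, *Bgn*, *Serpinf1*, *Mrc2* and *Bcan*, 5 of the 24421 genes in a table of read counts from sorted mouse alveolar type 2 cells (AT2s). They encode matrix proteins, proteoglycans and a collagen receptor, and were chosen by their counts in this table. These were higher in all 3 libraries from mice with a constitutively active BMP receptor than in the 3 control libraries. Their levels and fold changes are therefore a description, with no test. Every one of the 5 passed the filter on low counts.

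Lineage-labeled AT2s were isolated by FACS from tamoxifen-treated mice, and poly(A) RNA was sequenced from 3 mice of each genotype. Control mice were *Sftpc-CreERT2/+; R26-tdTomato/+*. The caBmpr1a mice carried *Sftpc-CreERT2/+* with *R26-tdTomato/R26-caBmpr1a*, in which the second *Rosa26* allele expresses, after recombination, a BMPR1a (a type I receptor for BMPs) that signals without ligand. Control 2 and caBmpr1a 1 came from mice of 16 weeks, and the other 4 libraries from mice of 12 weeks. Both genotypes carry the Cre driver and the tdTomato reporter, and the label depends on *Sftpc*. From organoid colonies, the study inferred that some AT2s may have recombined the reporter without the caBmpr1a allele; whether the sorted caBmpr1a cells sequenced here were such a mixture was not tested. Equal replicate numbers in the groups belong to different mice. The libraries held 22909120, 24490233 and 27915100 counts (control 1, 2 and 3) and 21554249, 24716504 and 28440227 counts (caBmpr1a 1, 2 and 3). At these depths 3 counts corresponded to between 0.0976 and 0.138 CPM (counts scaled by TMM to a common total), which covers counting error only. Control 1 and caBmpr1a 3 held reads on Y-linked genes, at 176 and 146 CPM, and the other 4 libraries held 0.

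BMP ligands signal through type I receptors such as BMPR1a to SMAD proteins, which enter the nucleus and switch on targets such as the *Id* genes and the inhibitory *Smad6*. The extracellular matrix of the alveolar wall is built mostly by fibroblasts, which secrete fibrillar collagens and the proteoglycans that decorate them. AT2s are best known for making surfactant, and they also contribute to the basement membrane.

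*Aebp1* encodes a secreted carboxypeptidase-like protein that binds collagen and takes part in fibril assembly. On mm10 it lies at chr11:5861866-5872248 on the + strand. Its level was 29.01, 40.4 and 30.3 CPM in control 1, 2 and 3, and 222, 344 and 389 CPM in caBmpr1a 1, 2 and 3. The groups did not overlap, and the lowest caBmpr1a library held 5.50 times the level of the highest control library. Mean levels of 33.2 ± 6.22 and 319 ± 86.5 CPM (SD, n = 3) gave a 9.59-fold difference and a log2 fold change of 3.26 ± 0.24 (SE). Of the exon bases of *Aebp1*, 69 (1.69%) are shared with exons of *Pold2*, where the counting left reads out; the exons of the other 4 genes overlap no other gene of the table.

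The proteoglycans among them are *Bgn* and *Bcan*. *Bgn* encodes biglycan, a small leucine-rich proteoglycan that binds collagen fibrils and growth factors of the TGFβ family, and lies at chrX:73483635-73495936 on the + strand. It was at 53.5, 72.8 and 62.7 CPM in control 1, 2 and 3 and at 160, 279 and 341 CPM in caBmpr1a 1, 2 and 3. Control libraries varied by 1.36-fold and caBmpr1a libraries by 2.13-fold, with no overlap. The means of 63.0 ± 9.65 and 260 ± 91.9 CPM (SD, n = 3) gave a log2 fold change of 2.05 ± 0.27 (SE). *Bcan* encodes brevican, a hyaluronan-binding lectican known mainly from the matrix of the brain, at chr3:87987531-88000356 on the - strand. It was at 71.8, 45.3 and 69.9 CPM in control 1, 2 and 3 and at 268, 417 and 571 CPM in caBmpr1a 1, 2 and 3. Here control 2 was the lowest library of its group, whereas for *Bgn* it was the highest. The means were 62.3 ± 14.8 and 419 ± 151 CPM (SD, n = 3), with a log2 fold change of 2.75 ± 0.30 (SE).

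*Serpinf1* encodes pigment epithelium-derived factor, a secreted serpin that inhibits no protease, binds collagen and restrains vessel growth. It lies at chr11:75410029-75422623 on the - strand. It had the lowest CPM of the 5 genes, with 18.9, 11.4 and 15.3 CPM in control 1, 2 and 3 and 41.4, 61.3 and 85.9 CPM in caBmpr1a 1, 2 and 3. Control 2 was again the lowest control library, and the lowest caBmpr1a library exceeded the highest control library by 2.19 times. The means were 15.2 ± 3.74 and 62.8 ± 22.3 CPM (SD, n = 3), with a log2 fold change of 2.05 ± 0.28 (SE).

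*Mrc2* encodes Endo180, a receptor of the mannose receptor family that takes up collagen for breakdown in lysosomes, at chr11:105292646-105351145 on the + strand. It was at 69.2, 88.9 and 71.4 CPM in control 1, 2 and 3 and at 208, 337 and 283 CPM in caBmpr1a 1, 2 and 3. Its highest library was caBmpr1a 2, in contrast to the other 4 genes, for which it was caBmpr1a 3. The means of 76.5 ± 10.8 and 276 ± 65.0 CPM (SD, n = 3) gave a log2 fold change of 1.85 ± 0.20 (SE), the lowest of the 5.

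**Figure D1:**
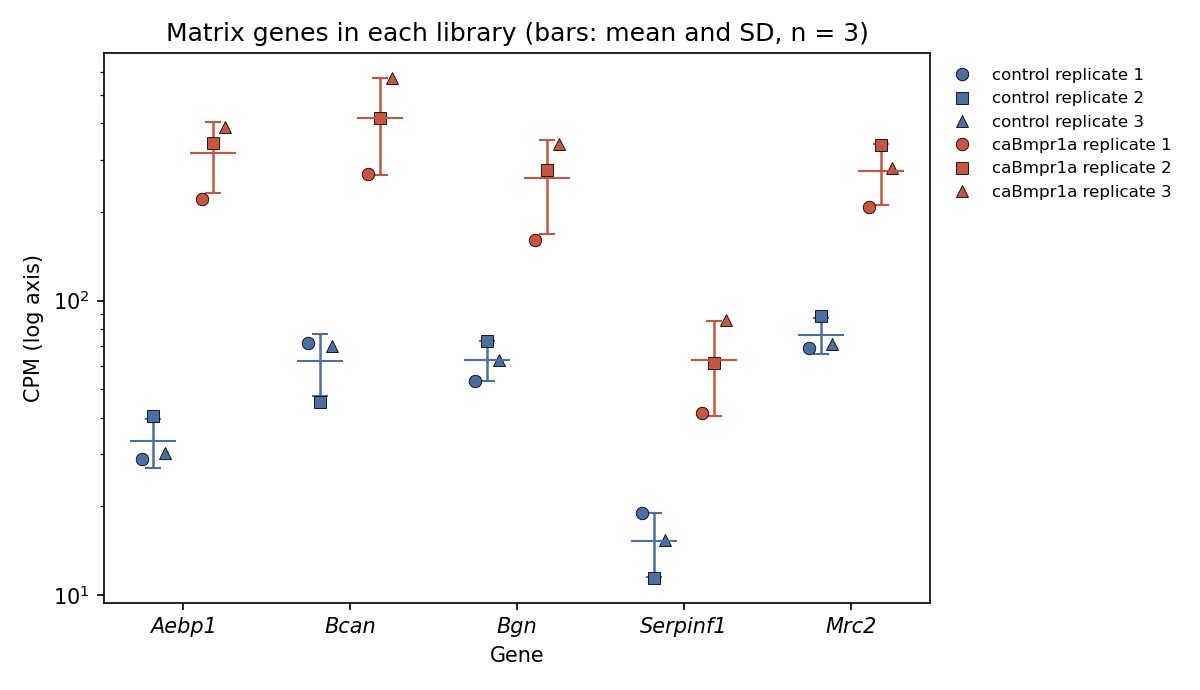
CPM (log axis) of the 5 matrix genes in each of the 6 libraries, with control libraries in blue, caBmpr1a libraries in red and one marker shape for each replicate number; horizontal bars are means and error bars SDs over 3 libraries. For each gene the 3 caBmpr1a libraries lie above the 3 control libraries, from a 2.19-fold gap for *Serpinf1* to a 5.50-fold gap for *Aebp1*.

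Levels of different genes can be compared only per length of exon. In control libraries *Bgn* was the most abundant of the 5 with 26.4 ± 4.04 CPM per kilobase (SD, n = 3), followed by *Bcan* with 16.4 ± 3.89, *Mrc2* with 13.2 ± 1.86, *Serpinf1* with 10.2 ± 2.503 and *Aebp1* with 8.15 ± 1.53. The spreads between libraries overlapped for *Bcan* and *Mrc2*, *Bcan* and *Serpinf1*, *Mrc2* and *Serpinf1*, and *Serpinf1* and *Aebp1*. Within each control library *Bcan* was above *Serpinf1*, while the other pairs changed order between libraries. In caBmpr1a libraries *Bcan* and *Bgn* were at 110 ± 39.7 and 109 ± 38.5 CPM per kilobase (SD, n = 3), and their order changed between libraries. *Aebp1* at 78.2 ± 21.2 overlapped both in spread, but lay below both within each caBmpr1a library. *Mrc2* at 47.6 ± 11.2 and *Serpinf1* at 42.1 ± 14.9 CPM per kilobase came last by their means, and their order also changed between libraries. The spread of *Aebp1* overlapped that of *Mrc2* and that of *Serpinf1*, but within each caBmpr1a library *Aebp1* was above both. In control libraries 59.5% of the tested genes had a lower mean CPM per kilobase than *Aebp1*, and in caBmpr1a libraries 95.8%. For *Bgn* these shares were 84.2% and 97.1%.

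Among the caBmpr1a libraries the 5 genes had their lowest level in the same one, which was not so among the control libraries. caBmpr1a 1, one of the libraries of 16 weeks, was the lowest of its group for all 5, and the highest caBmpr1a library exceeded it by between 1.62-fold (*Mrc2*) and 2.13-fold (*Bgn*). Among the 33 other genes called higher in caBmpr1a, caBmpr1a 1 was the lowest library of the group for 32, and caBmpr1a 3 was the highest for 22 and caBmpr1a 2 for 11. caBmpr1a 3 is also one of the 2 libraries with Y-linked reads. In the 4 libraries without such reads the log2 fold changes were 3.04 for *Aebp1*, 2.61 for *Bcan*, 1.97 for *Serpinf1*, 1.80 for *Mrc2* and 1.73 for *Bgn*. Between the 16 week libraries, caBmpr1a 1 and control 2, the log2 ratio was 2.57 for *Bcan*, 2.46 for *Aebp1*, 1.85 for *Serpinf1*, 1.22 for *Mrc2* and 1.14 for *Bgn*. With a covariate for age the log2 fold change of *Aebp1* was 3.24 and that of *Bgn* 2.00. *Bmpr1a* itself, looked up as a check of the labels and outside the rule for named genes, was at 105, 130 and 125 CPM in control 1, 2 and 3 and at 131, 128 and 96.8 CPM in caBmpr1a 1, 2 and 3, so the groups overlapped.

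The contrast from which the 5 genes were taken held few calls with edgeR. Of 16723 genes tested, 38 were called higher in caBmpr1a (0.227%) and 2 lower (0.012%), with thresholds of 0.05 on the adjusted p and 1 on the size of the log2 fold change, by the quasi-likelihood test of edgeR with Benjamini-Hochberg adjustment. DESeq2 called 119 higher and 25 lower. The study also used DESeq2 and reported the same numbers for changes of more than 2-fold. On simulated data with dispersions from edgeR, the share of false calls exceeded the threshold in all 3 draws for DESeq2. For edgeR it did so in 1 draw. At an unadjusted p under 0.05, 4.62% of the tested genes were higher and 5.05% lower. In 7% of the tested genes every caBmpr1a library lay above every control library, and in 10.1% below. The 5 matrix genes are among the 38, which follows from how they were chosen, and by log2 fold change they took places 12 (*Aebp1*), 16 (*Bcan*), 22 (*Serpinf1*), 23 (*Bgn*) and 25 (*Mrc2*). The number called higher depended on single libraries: it was 12 without control 1, 6 without control 2, 7 without control 3, 59 without caBmpr1a 1, 8 without caBmpr1a 2 and 25 without caBmpr1a 3. The number called lower was 1, 0, 0, 4, 0 and 2 in the same order.

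The levels of the 5 genes were set beside 20 stromal (fibroblast) genes of the same libraries. *Col1a1*, a chain of collagen I, was at 25.7, 31.8 and 30.9 CPM in control 1, 2 and 3 and at 44.2, 51.8 and 47.3 CPM in caBmpr1a 1, 2 and 3. Its groups did not overlap, but its log2 fold change of 0.70 ± 0.13 (SE) did not pass (adjusted p = 0.114 by the quasi-likelihood test of edgeR with Benjamini-Hochberg adjustment, higher in 3 of 3 libraries). *Col1a2* and *Col3a1* had log2 fold changes of 0.64 and 0.77, *Pdgfra* 0.33, *Pdgfrb* 0.67, *Dcn* 0.36, *Lum* 0.14 and *Eln* 0.28. The largest log2 fold changes of the list were 0.93 for *Mfap4* and 0.82 for *Fbn1*, so none of the 20 reached the 1.85 of *Mrc2*. edgeR called 0 of the 20, with 10 higher at an unadjusted p under 0.05, beside 4.62% of all tested genes. In 9 of the 20 every caBmpr1a library lay above every control library, beside 7% of all tested genes. DESeq2 and limma-voom also called 0, although *Col1a1*, *Col1a2* and *Col3a1* had an adjusted p under 0.05 with DESeq2. With a covariate for Y-linked reads edgeR gave these 3 and *Fbn1* an adjusted p from 0.0166 to 0.0424, and with library size only *Col1a1* one of 0.0439, at log2 fold changes under 1. The median log2 fold change of the 20 was 0.55, beside -0.0096 for all tested genes and 2.05 for the 5 matrix genes, and 19 of the 20 were above 0 (20 with upper-quartile scaling or library size only).

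In each caBmpr1a library the lowest of the 5 matrix genes, relative to its control mean, still lay above the highest of the 20 stromal genes. Relative to the control mean, on the scale of log2(CPM + 0.5), *Bgn* stood at 1.35 in caBmpr1a 1, where the highest stromal gene was at 0.81 and the stromal median at 0.37. In caBmpr1a 2, *Serpinf1* was at 2.00, the highest stromal gene at 1.15 and the median at 0.72. In caBmpr1a 3, *Mrc2* was at 1.89, *Mfap4* at 1.34 and the median at 0.54. These places of the matrix genes follow in part from their choice.

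**Figure D2:**
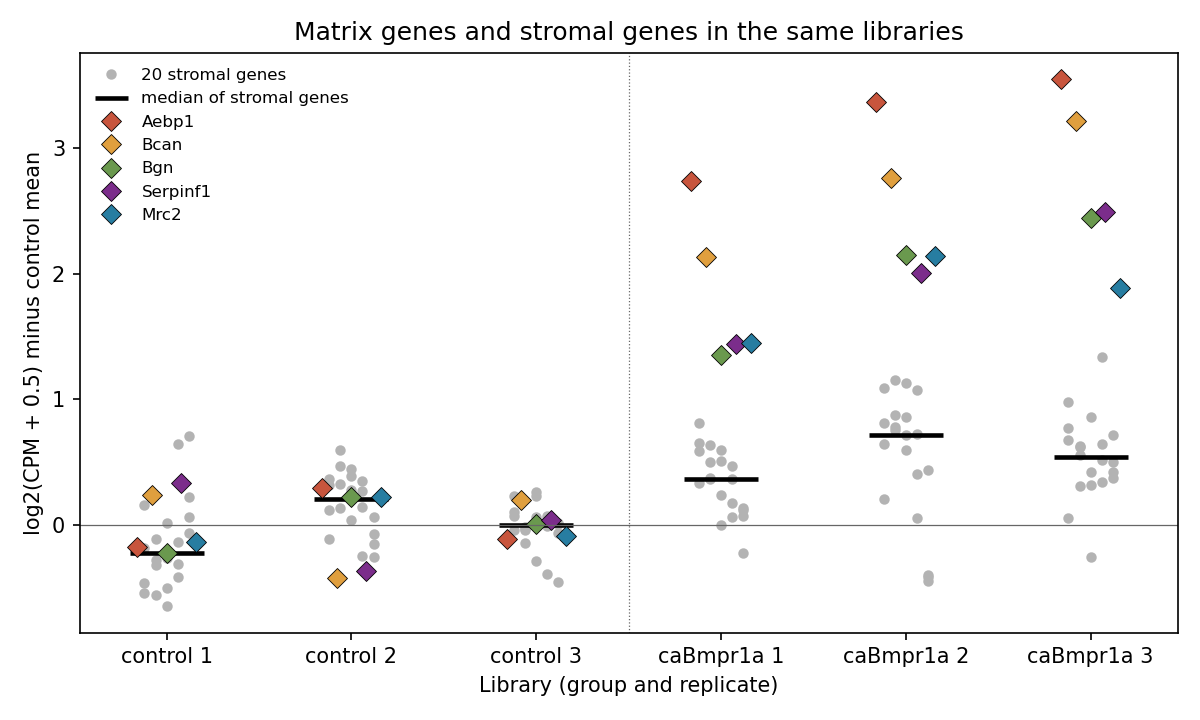
Difference from the control mean on the scale of log2(CPM + 0.5) in each of the 6 libraries, for the 5 matrix genes (coloured diamonds) and 20 stromal genes (grey points, with their median as a black bar). In the caBmpr1a libraries the stromal medians are 0.37, 0.72 and 0.54, and the lowest matrix gene stands at 1.35, 2.00 and 1.89.

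The stromal genes together were also higher in caBmpr1a libraries. Their summed level was 376, 561 and 465 CPM in control 1, 2 and 3 and 622, 803 and 683 CPM in caBmpr1a 1, 2 and 3, with means of 467 ± 92.8 and 703 ± 91.7 CPM (SD, n = 3) and a 1.504-fold difference. In a bulk sample, more cells of a type and more RNA per cell cannot be told apart. The most abundant stromal gene per length was *Inmt* (log2 fold change 0.58), and *Lum* was under 1 CPM in every library; none of the 20 was at 0 throughout. The 5 genes were also expressed per unit of this stromal sum. Since they were chosen for higher counts in all 3 caBmpr1a libraries, that these ratios are higher too follows in large part from the choice. The ratio of *Aebp1* to the stromal sum was 0.0772, 0.0719 and 0.0652 in control 1, 2 and 3 and 0.357, 0.429 and 0.570 in caBmpr1a 1, 2 and 3, which is 6.33-fold higher in the mean. For *Bcan* the ratio was 0.191, 0.0806 and 0.150 in the control libraries and 0.431, 0.519 and 0.835 in the caBmpr1a libraries (4.23-fold). The mean ratios of *Bgn*, *Serpinf1* and *Mrc2* were 2.71-fold, 2.59-fold and 2.35-fold higher in caBmpr1a. In none of the 5 did the ratios of the groups overlap, which the choice also favors.

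The control libraries show how the 5 genes stood to the stromal sum in mice without the caBmpr1a allele. *Bgn*, *Aebp1* and *Mrc2* were highest in control 2, as was the stromal sum, and their ratios to it spanned 0.130 to 0.142, 0.0652 to 0.0772 and 0.154 to 0.184. *Bcan* and *Serpinf1* were lowest in control 2, and their ratios spanned 0.0806 to 0.191 and 0.0204 to 0.0503. With 3 control libraries no test of this difference was made, and it was noticed after the values were seen. By length, *Bgn* already exceeded 19 of the 20 stromal genes in control libraries, *Bcan*, *Mrc2* and *Serpinf1* 17, and *Aebp1* 16. In caBmpr1a libraries *Aebp1*, *Bgn*, *Bcan* and *Mrc2* exceeded 19 and *Serpinf1* 18.

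**Figure D3:**
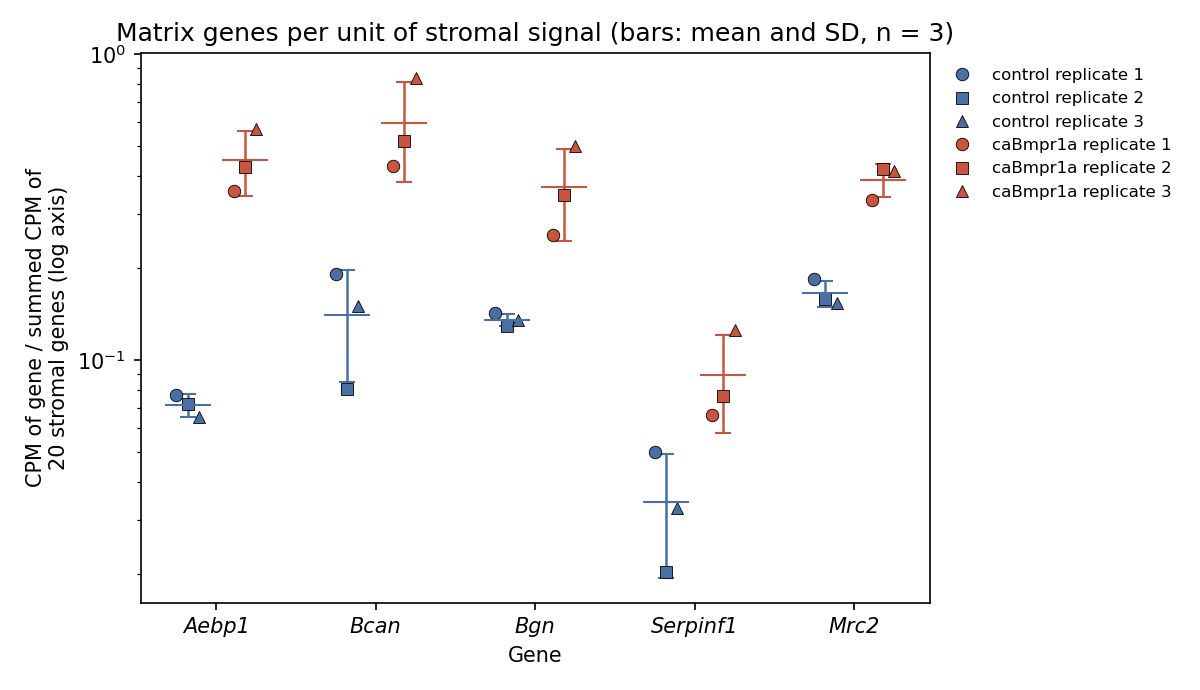
CPM of each matrix gene divided by the summed CPM of the 20 stromal genes of the same library (log axis), for 3 control (blue) and 3 caBmpr1a (red) libraries; bars are means and SDs. The ratios of the groups do not overlap for any of the 5 genes, and the difference of means runs from 2.35-fold (*Mrc2*) to 6.33-fold (*Aebp1*).

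Markers of other cells that a sort of lung cells could hold also had medians above that of all tested genes. The median log2 fold change was 0.43 for 10 pericyte and smooth muscle genes (*Mcam* the most abundant, 0.75, *Des* 0.93), 0.56 for 7 mesothelial genes (*Msln* 1.14, *Lrrn4* 0.86), 0.58 for 12 endothelial genes (*Esam* the most abundant, -0.07, *Emcn* 0.89, *Cldn5* 0.74) and 0.72 for 12 leukocyte genes (*Cd68* the most abundant, -0.12, *S100a8* 1.47, *Itgax* 1.30). Of these medians, the leukocyte one was 0.24 without caBmpr1a 1. The endothelial one was 0.33 without caBmpr1a 2, 0.39 without control 1 and 0.93 without control 2, and the mesothelial one 0.31 without control 3 and 0.34 without caBmpr1a 3. Some named genes also varied widely between libraries. *Msln* was at 7.89, 10.2 and 25.9 CPM in caBmpr1a 1, 2 and 3, beside a control mean of 6.68. In the same order *S100a8* was at 4.03, 1.47 and 0.195 CPM (control mean 0.676) and *Itgax* at 16.5, 8.73 and 2.31 CPM (control mean 3.70). edgeR, DESeq2 and limma-voom called 0 genes of these lists, with 3, 1, 6 and 1 higher at an unadjusted p under 0.05 by edgeR. The summed level of the leukocyte genes was 67.8, 72.1 and 78.5 CPM in control 1, 2 and 3 and 153, 96.8 and 62.8 CPM in caBmpr1a 1, 2 and 3, so it was lowest where 4 of the 5 matrix genes were highest. The endothelial sum was 431, 669 and 472 CPM in the control libraries and 584, 862 and 666 CPM in the caBmpr1a libraries, and the groups overlapped. The pericyte sum was 67.1, 101 and 84.4 CPM in the control libraries and 89.9, 130 and 150 CPM in the caBmpr1a libraries. The mesothelial sum was 34.8, 40.7 and 19.5 against 32.5, 41.2 and 73.0 CPM. Both sums rose in the order caBmpr1a 1, 2 and 3, as did *Aebp1*, *Bcan*, *Bgn* and *Serpinf1*. *Mrc2* was highest in caBmpr1a 2, as were the endothelial and stromal sums. Of 10 nerve and glia genes, a set given since *Bcan* is known from brain, 5 passed the filter, with a median of -0.34 (*Mbp* the most abundant, -0.34). Over all 10 the median was 0.09 with no expression filter and 0.12 with DESeq2, and over the 8 that passed without caBmpr1a 1 or caBmpr1a 2 it was 0.01 and -0.20. Library size only gave -0.21 for the 5. The sign of this median thus depends on the filter. Leaving out caBmpr1a 1 also changed which genes passed, so the library and the filter cannot be separated there. Over 5 genes the median was -0.30 without control 1 and -0.28 without caBmpr1a 3. Over 8 genes it was -0.41 without control 2 and -0.27 without control 3. The nerve and glia sum was 124, 139 and 138 CPM in the control libraries and 118, 104 and 101 CPM in the caBmpr1a libraries, so each caBmpr1a library was below every control library, while *Bcan* was above. *Mbp* made up most of this sum, with 101, 121 and 121 CPM in the control libraries and 103, 87.6 and 80.8 CPM in the caBmpr1a libraries, and 2 of the 5 tested genes had a log2 fold change above 0. edgeR, DESeq2 and limma-voom called 0 of these, with 2 lower at an unadjusted p under 0.05 by edgeR. The part of other cells in the levels of the 5 genes was not tested beyond these values.

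Markers of AT2s were by far the most abundant of the cell type lists. *Sftpc*, the surfactant gene that drives the Cre, was the most abundant of the 12 at 60123, 43468 and 42700 CPM in control 1, 2 and 3 and 42839, 43673 and 45465 CPM in caBmpr1a 1, 2 and 3. The 12 had a median log2 fold change of -0.43, with *Lyz2* at -1.09 and *Cxcl15* at -1.01; without caBmpr1a 3 the median was -0.26. edgeR called 0 of the 12, with 6 lower at an unadjusted p under 0.05, DESeq2 called 1 lower and limma-voom 0. With a covariate for Y-linked reads edgeR called 2 lower, *Lyz2* (log2 fold change -1.15, adjusted p = 0.0462) and *Cxcl15* (-1.10, adjusted p = 0.0395). Their summed level was 170893, 156573 and 154245 CPM in control 1, 2 and 3 and 135850, 121809 and 110738 CPM in caBmpr1a 1, 2 and 3. caBmpr1a 3, where the AT2 sum was lowest, held the highest level of *Aebp1*, *Bcan*, *Bgn* and *Serpinf1*. The 10 AT1 genes had a median of 0.33 (*Ager* the most abundant, -0.02, *Rtkn2* 0.84, *Igfbp2* 0.60), but of -0.0027 without caBmpr1a 2, 0.19 without control 3, 0.21 without control 1, 0.54 without caBmpr1a 3 and 0.55 without control 2; edgeR, DESeq2 and limma-voom called 0, with 1 higher and 1 lower at an unadjusted p under 0.05 by edgeR. The AT1 sum was 3351, 3143 and 2522 CPM in the control libraries and 2903, 3302 and 2716 CPM in the caBmpr1a libraries.

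Each matrix gene was then compared with its closest relatives. Since the matrix genes were chosen for higher counts in caBmpr1a, their larger differences here and below follow in large part from the choice. Beside *Bgn*, 12 other small leucine-rich proteoglycan genes were tested, with a median log2 fold change of 0.41. *Prelp*, the most abundant of them, was at 0.47, *Fmod* at 1.07 and *Nyx* at 1.04, all with an adjusted p over 0.05. edgeR, DESeq2 and limma-voom called 0 of the 12, with 1 higher at an unadjusted p under 0.05 by edgeR. The summed level of the 15 other genes of the list, 76.3, 104 and 82.6 CPM in control 1, 2 and 3 and 107, 134 and 106 CPM in caBmpr1a 1, 2 and 3, was 1.32-fold higher in caBmpr1a, while that of *Bgn* alone was 4.13-fold higher.

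*Bcan* was the most abundant lectican, and no other exceeded 5.24 CPM in any library. *Ncan*, *Vcan* and *Acan* encode the other lecticans. *Ncan* was at 2.87, 0.772 and 1.22 CPM in control 1, 2 and 3 and at 1.88, 2.02 and 5.24 CPM in caBmpr1a 1, 2 and 3, and *Vcan* lay between 1.34 and 3.42 CPM. *Acan*, between 0 and 0.716 CPM, did not pass the filter. Of the 10 other tested genes for lecticans and hyaluronan partners the median log2 fold change was 0.79, with *Cd44*, the most abundant, at -0.32, *Has1* at 1.39 and *Hapln4* at 1.15. The values of *Has1* and *Hapln4* came mostly from caBmpr1a 3, and without it they were 0.38 and 0.22 and the median of the 10 was 0.27. edgeR, DESeq2 and limma-voom called 0 of the 10, with 1 higher at an unadjusted p under 0.05 by edgeR. The summed level of the 13 other genes of the list was 0.868 times as high in caBmpr1a as in control libraries, while *Bcan* was 6.72-fold higher. *Cd44* made up most of that sum, with 128, 149 and 188 CPM in the control libraries and 135, 134 and 104 CPM in the caBmpr1a libraries, and 8 of the 10 tested genes had a log2 fold change above 0.

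*Mrc2* was likewise far above its family in level. The related receptors *Mrc1* (log2 fold change 0.84), *Pla2r1* (0.58) and *Ly75* (0.15) had at most 17.1, 7.99 and 19.1 CPM in any library. *Mrc1*, which marks macrophages, peaked in caBmpr1a 1, where *Mrc2* was lowest of its group. *Mrc1* was at 3.77, 5.36 and 6.21 CPM in control 1, 2 and 3 and at 17.1, 6.56 and 4.10 CPM in caBmpr1a 1, 2 and 3. Its log2 fold change thus came mostly from caBmpr1a 1. Over the 11 other genes of the mannose receptor family and collagen uptake the median was 0.31, with *Ctsb*, the most abundant, at -0.07, *Mmp2* at 1.13 and *Plaur* at 1.00. That median was 0.08 without caBmpr1a 1, 0.52 without control 3, 0.57 without control 1 and 0.60 in the 4 libraries without Y-linked reads. edgeR and limma-voom called 0 of the 11, with 3 higher at an unadjusted p under 0.05 by edgeR, and DESeq2 called *Plaur* and *Mmp2* higher, as did edgeR with a covariate for Y-linked reads (adjusted p = 0.042 and 0.0427).

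Of the carboxypeptidases related to *Aebp1*, 6 were tested, with a median log2 fold change of 0.18 (0.04 without caBmpr1a 3, 0.05 without control 3, 0.32 without control 2 and 0.31 with library size only). Over all 7 genes it was 0.30 with no expression filter and 0.33 with DESeq2. *Cpxm1* and *Cpxm2*, which like *Aebp1* lack key residues of the active site, were at 0.72 and 0.32 with no more than 3.48 CPM in any library. *Cpe* and *Cpd* were at 0.40 and 0.05. *Cpm*, a membrane-bound enzyme and the most abundant of the list, differed in the other direction, with 1201, 1549 and 1605 CPM in control 1, 2 and 3 and 1150, 789 and 460 CPM in caBmpr1a 1, 2 and 3 (log2 fold change -0.86 ± 0.30 SE, adjusted p = 0.421 by the quasi-likelihood test of edgeR with Benjamini-Hochberg adjustment, lower in 3 of 3 libraries). With a covariate for Y-linked reads it was at -0.93 with an adjusted p of 0.0378. Its lowest library was the one with the most *Aebp1*. edgeR, DESeq2 and limma-voom called 0 of the 6, with 2 lower at an unadjusted p under 0.05 by edgeR.

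Among 10 serpins beside *Serpinf1* the median log2 fold change was 0.33, which depended on single libraries: it was -0.08 without caBmpr1a 3 and 0.12 without control 3. In the 4 libraries without Y-linked reads it was 0.12, and with the replicate block 0.21. *Serpinf2*, which encodes the plasmin inhibitor and is the nearest gene to *Serpinf1* on one side, was at 8.07, 3.30 and 3.16 CPM in control 1, 2 and 3 and at 5.78, 7.29 and 24.3 CPM in caBmpr1a 1, 2 and 3. Its groups overlapped (log2 fold change 1.37 ± 0.59 SE, adjusted p = 0.508 by the quasi-likelihood test of edgeR with Benjamini-Hochberg adjustment), and its highest library was caBmpr1a 3, as for *Serpinf1*. Without that library its log2 fold change was 0.49. *Serpinh1*, a collagen chaperone and the most abundant of the list, was at 0.10. edgeR and limma-voom called 0 of the 10, with 3 higher at an unadjusted p under 0.05 by edgeR, and DESeq2 called 1 higher. With a covariate for Y-linked reads edgeR called 2 of the 10 higher, among them *Serpinf2* (log2 fold change 1.23, adjusted p = 0.0187).

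The machinery that makes collagen fibrils and the sugar chains of *Bgn* and *Bcan* held no call beside them. Of 28 genes for collagen synthesis and processing, which include 4 of the stromal list, the median log2 fold change was 0.45, with *Bmp1*, the most abundant, at 0.0021, *Col5a1* at 0.83 and *Col3a1* at 0.77. The median was 0.25 without caBmpr1a 3 and 0.30 without control 2. edgeR, DESeq2 and limma-voom called 0, with 9 higher and 2 lower at an unadjusted p under 0.05 by edgeR. Biglycan and brevican carry chondroitin or dermatan sulfate, and the 21 tested enzymes of these chains had a median of 0.03 with 11 above 0 (16 with library size only). This median was -0.0016 without control 1, 0.02 without control 2 or caBmpr1a 2, 0.08 without control 3 and 0.12 without caBmpr1a 3, and 0.16 with library size only. *Chsy1*, the most abundant, was at 0.05, *Chsy3* at 0.99 and *Chst12* at -0.66. edgeR, DESeq2 and limma-voom called 0 of the 21, with 2 lower at an unadjusted p under 0.05 by edgeR.

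**Figure D4:**
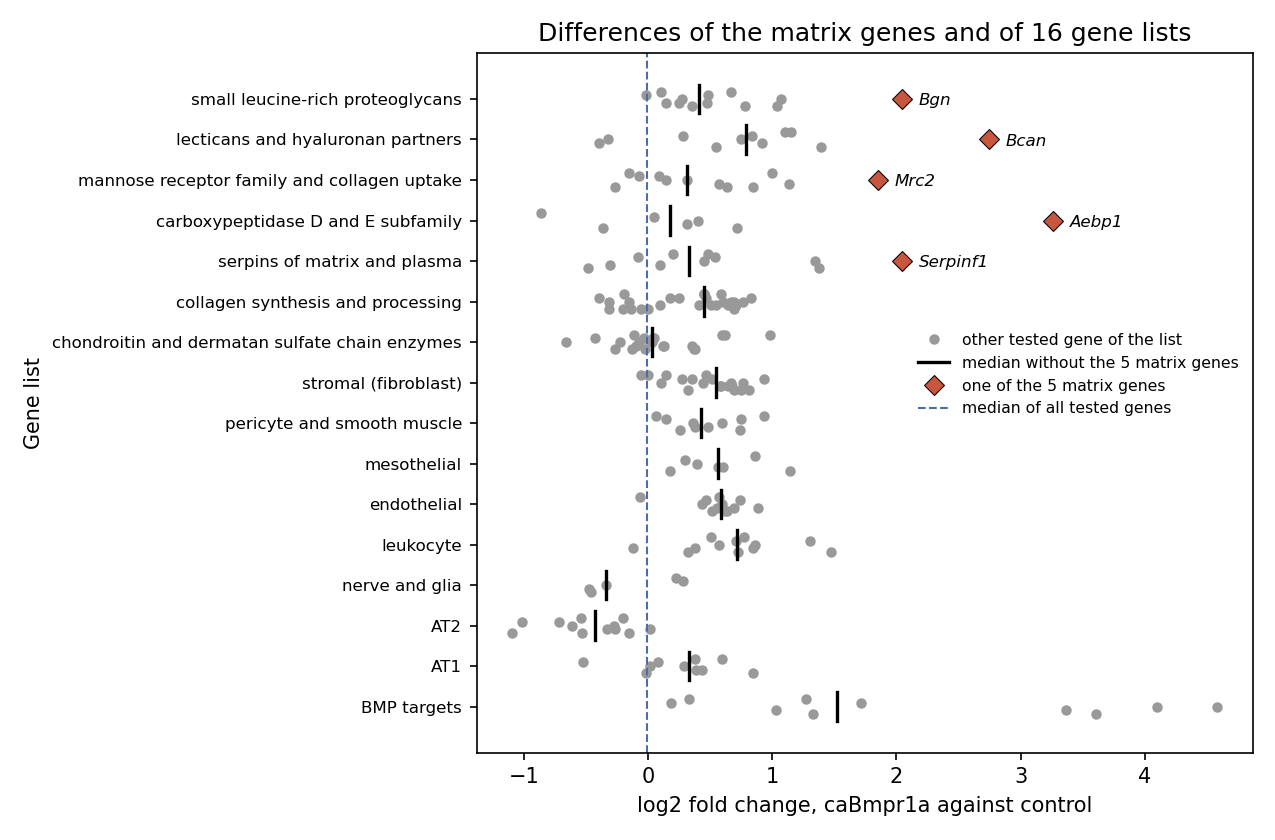
Log2 fold change (caBmpr1a against control) of each tested gene of 16 lists, with the 5 matrix genes as red diamonds, a black bar for the median of the other genes of each list and a dashed line for the median of all tested genes (-0.0096). The matrix genes lie between 1.85 and 3.26, to the right of every other gene of their own lists, which follows in large part from their choice. Among the other genes only those of the BMP target list reach 1.85.

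Of the 102 tested genes in the 7 matrix lists, 25 had every caBmpr1a library above every control library, and 20 without the 5 matrix genes, beside 7% of all tested genes. Just inside the choice stood *Serpinf1*, whose lowest caBmpr1a library was 2.19 times its highest control library. Among the genes outside it were *Fmod* with 1.45 times and *Tnc* with 1.41, the last chosen after its value was seen.

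The BMP targets give the scale of the pathway in the same libraries. *Id1* and *Id3*, inhibitors of basic helix-loop-helix factors, had log2 fold changes of 3.61 ± 0.42 and 4.58 ± 0.43 (SE), with adjusted p = 0.0172 and 0.00758 by the quasi-likelihood test of edgeR with Benjamini-Hochberg adjustment, each higher in 3 of 3 libraries. The 3.26 of *Aebp1* lay below both and above the 1.27 of *Smad6*, which inhibits BMP signaling (adjusted p = 0.0431 by the same test, higher in 3 of 3 libraries). *Id3* was at 13.8, 15.6 and 11.2 CPM in control 1, 2 and 3 and at 179, 247 and 545 CPM in caBmpr1a 1, 2 and 3, so that caBmpr1a 3 was highest as for 4 of the matrix genes. *Smad6* was at 44.7, 63.2 and 55.4 CPM in the control libraries and 105, 159 and 130 CPM in the caBmpr1a libraries, with its highest library in caBmpr1a 2 as for *Mrc2*. Of 10 tested targets 5 were called higher by edgeR, the others being *Smad9* (3.37) and *Atoh8* (4.10), with a median log2 fold change of 1.52; DESeq2 called 8, limma-voom 4 and edgeR with a covariate for Y-linked reads 7. The call of *Smad6* was lost without any one library other than caBmpr1a 1, with adjusted p from 0.0983 to 0.216, and those of *Id1* and *Id3* without any one control library, with adjusted p from 0.0536 to 0.130. *Smad6* was also not called with RLE size factors, limma-voom or a covariate for age (adjusted p from 0.0545 to 0.0988). The call of *Id1* was also lost without caBmpr1a 2, at an adjusted p of 0.0544 by the quasi-likelihood test of edgeR with Benjamini-Hochberg adjustment.

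The profile of the 5 genes was averaged to find the genes most like them. The measure was the root mean square difference over the 6 libraries, on the scale of log2(CPM + 0.5) relative to the control mean. The mean profile stood at 1.82, 2.48 and 2.71 in caBmpr1a 1, 2 and 3. The nearest genes were *Dnm1* at a distance of 0.12, *Dpyd* at 0.13, *Hr* at 0.22, *Ano1* at 0.24 and *Ppp1r36* at 0.26. The matrix genes themselves lay farther from their own mean, from 0.29 for *Bgn* to 0.64 for *Aebp1*. The nearest genes had the smallest distances among all other tested genes, so their closeness follows from the search. *Dpyd*, the rate-limiting enzyme of pyrimidine breakdown, was at 12.6, 12.7 and 15.5 CPM in control 1, 2 and 3 and at 49.1, 69.5 and 82.1 CPM in caBmpr1a 1, 2 and 3. Its log2 fold change of 2.30 lay between those of *Serpinf1* and *Bcan*. *Ppp1r36* was far less abundant, at no more than 5.31 CPM in any library. Its log2 fold change was 3.26, and edgeR (with an adjusted p just over 0.05) and limma-voom did not call it. DESeq2 called it, as did edgeR with RLE size factors, library size only, no expression filter, the 1 CPM filter or a covariate for Y-linked reads (adjusted p from 0.00969 to 0.0487). The 0.5 added to each CPM brings so low a gene nearer to the mean profile.

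The 5 genes lie on 3 chromosomes, with *Aebp1*, *Serpinf1* and *Mrc2* on chromosome 11, far apart from each other. The nearest tested gene on each side of each that does not overlap it, looked up after the values were seen, was compared with it; *Pold2*, which overlaps *Aebp1*, was left out. Of these 10 neighbours 9 had a log2 fold change above 0, with a median of 0.38 (0.60 without control 1 and 0.58 without caBmpr1a 2) and a range from -0.07 to 1.87. edgeR called 0 of them, with 3 at an unadjusted p under 0.05, and DESeq2 called 0. With a covariate for Y-linked reads edgeR called 1, *Serpinf2*. *Smyd4*, 4324 bases from *Serpinf1*, was at 9.37, 8.49 and 8.83 CPM in control 1, 2 and 3 and at 12.6, 11.6 and 12.5 CPM in caBmpr1a 1, 2 and 3, a log2 fold change of 0.46. *Nes*, 7080 bases from *Bcan*, was at 1.02, and *Hapln2* on its other side, which encodes a partner of lecticans, at 0.28. *Polm* and *Ykt6* beside *Aebp1* were at 0.13 and -0.07, *Haus7* and *Atp2b3* beside *Bgn* at 0.29 and 0.75, and *Tlk2* beside *Mrc2* at 0.03. *March10*, on the other side of *Mrc2*, had the 1.87, at no more than 1.37 CPM in any library.

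Since the 5 genes were chosen for a common direction and SMAD proteins bind DNA, their promoters were searched for short letters that SMADs are known to bind. RefSeq promoter windows (GRCm38.p6, 250 bases before to 50 after the start site) were matched for 4 of the 5 genes, *Aebp1*, *Bgn*, *Serpinf1* and *Bcan*. The search took both strands. The first motif, GGCGCC, is its own reverse complement. The next, GGAGCC, appears as GGCTCC where it lies on the opposite strand. The last, GTCTG, appears there as CAGAC. Of 32817 windows 11.9% held GGCGCC, 30.8% GGAGCC and 49.6% GTCTG. The windows with a match are printed 5′ to 3′ on the strand of the gene, with matches in capitals: *Aebp1* at chr11:5861616-5861915 (+), *Bcan* at chr3:88000307-88000606 (-) and *Serpinf1* at chr11:75422574-75422873 (-).
Aebp1: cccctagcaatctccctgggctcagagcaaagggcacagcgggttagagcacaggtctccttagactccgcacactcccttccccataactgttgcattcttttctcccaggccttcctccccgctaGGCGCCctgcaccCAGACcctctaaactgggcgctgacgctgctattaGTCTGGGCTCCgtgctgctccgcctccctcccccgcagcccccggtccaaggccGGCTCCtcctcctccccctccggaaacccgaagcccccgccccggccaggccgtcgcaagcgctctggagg
Bcan: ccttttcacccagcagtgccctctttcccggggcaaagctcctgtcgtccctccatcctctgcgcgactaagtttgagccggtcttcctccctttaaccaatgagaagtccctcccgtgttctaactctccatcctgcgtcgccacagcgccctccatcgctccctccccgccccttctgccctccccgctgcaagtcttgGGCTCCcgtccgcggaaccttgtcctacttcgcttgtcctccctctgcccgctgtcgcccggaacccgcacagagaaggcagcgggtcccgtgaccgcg
Serpinf1: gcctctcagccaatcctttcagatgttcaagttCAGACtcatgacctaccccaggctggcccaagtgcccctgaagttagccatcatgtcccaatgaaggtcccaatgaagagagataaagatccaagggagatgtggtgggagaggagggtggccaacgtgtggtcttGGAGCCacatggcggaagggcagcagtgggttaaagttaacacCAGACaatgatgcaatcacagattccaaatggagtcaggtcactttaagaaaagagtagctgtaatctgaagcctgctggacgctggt

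*Aebp1*, which had the largest difference, held all 3 motifs, with GGCGCC starting at -123 from the start site, GGAGCC at -70 and -21 and GTCTG at -110 and -75. The GTCTG at -75 and the GGAGCC at -70 (as GGCTCC) stand side by side and form 1 unbroken run of capitals. Such closeness was not particular to *Aebp1*. A GTCT at most 3 bases from GGAGCC was present in the windows of *Aebp1*, *Bcan* and *Serpinf1*, but not of *Bgn*. Of all windows 2.24% held this pair. The pair, with the shorter GTCT and the limit of 3 bases, was not among the 3 motifs set for the search. Its share is thus a description and no test. *Bcan* held GGAGCC at -49 and no GTCTG, and *Serpinf1* held GGAGCC at -81 and GTCTG at -217 and -38. *Bgn*, whose window at chrX:73483351-73483650 (+) was searched in the same way, held none of the 3. The windows of *Aebp1*, *Bcan*, *Bgn* and *Serpinf1* were 66.3%, 64.0%, 63.7% and 50.7% G and C, beside a median of 52.7% over all windows. A match of letters is not a site of binding.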

How the data were processed

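Poly(A) RNA of FACS-sorted, lineage-labeled AT2s from 3 control and 3 caBmpr1a mice was sequenced in pairs. The authors trimmed reads (Trimmomatic), aligned them to mm10 with HISAT2, removed duplicates and deposited raw counts per gene from featureCounts 1.5.3, without normalization. Strand was not used, reads on overlapping genes were left out, and the file header holds no option for read pairs. The study's methods speak of fragments, which differs from that header. Even numbers made up 56.9% to 60.8% of counts from 1 to 20, so the values were treated as reads with mates counted separately, which would overstate the precision of low counts.

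From the deposited counts, TMM factors, CPM and CPM per kilobase of exon length were computed. Tests used edgeR 4.0.16 in R 4.3.3 (quasi-likelihood, default filter with a minimum count of 10, Benjamini-Hochberg adjustment over 16723 genes). DESeq2 1.42.0 and limma-voom (limma 3.58.1) were alternatives, with other scalings, filters, designs and each library left out. The fits were tested on simulated data in 3 draws, where each changed gene that was called had the right sign. The share of false calls exceeded the threshold in all 3 draws for DESeq2, whose calls are to be read with that doubt, and in 1 draw for edgeR and limma-voom. Since the simulated counts took their dispersions from edgeR, these shares cannot settle which tool errs more on the real counts. SE is the log2 fold change divided by the square root of F. Every pair of libraries of a group differed beyond counting noise. An exact permutation test of 3 against 3 cannot go below p = 0.1 and was not used.

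The 5 genes and all gene lists were chosen with earlier results of these data known. Named genes are the 5, fixed relatives and stromal genes, the most abundant gene of each list by mean TPM, its genes past an adjusted p of 0.05, its 2 largest log2 fold changes, *Id1*, *Id3*, *Smad6* and the 5 nearest profiles. Neighbouring genes, *Bmpr1a* and *Tnc* lie outside this rule. A few genes that the rule names are not reported here.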

Additional observations from a re-analysis of the deposited data

How the results depend on the processing

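The log2 fold changes of the 5 matrix genes kept their sign and moved by less than the SD between replicates in every alternative fit, from 3.04 to 3.49 for *Aebp1*, 2.501 to 3.01 for *Bcan*, 1.73 to 2.32 for *Bgn*, 1.80 to 2.30 for *Serpinf1* and 1.69 to 2.05 for *Mrc2*; their sign was fixed by their choice. Log2 ratios between 2 single libraries are no fit and lay outside these ranges for some genes: between the 16 week libraries that of *Bgn* was 1.14, of *Aebp1* 2.46 and of *Mrc2* 1.22, and between the libraries with Y-linked reads that of *Bgn* was 2.67 and of *Aebp1* 3.75. The median of all tested genes was 0.12 with library size only, so values under it are shifted up. With *Col1a1*, *Col1a2* and *Col3a1* alone as the stromal sum, the ratios were higher in caBmpr1a by 5.82-fold for *Aebp1*, 4.003-fold for *Bcan*, 2.504-fold for *Bgn*, 2.45-fold for *Serpinf1* and 2.18-fold for *Mrc2*.

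The counts of calls were less stable. Beside 38 higher and 2 lower, DESeq2 called 119 and 25, limma-voom 25 and 1, and a covariate for Y-linked reads 108 and 34. Upper-quartile scaling and library size only called 1 lower, the fit with no expression filter 5 lower, the covariate for age 1 lower and the 4 libraries without Y-linked reads 8 lower. Leaving out each library in turn gave 6 to 59 higher and 0 to 4 lower. The same replicate numbers do not pair the mice: the deviations of same-numbered libraries correlated at -0.32, 0.25 and -0.54, 1 of 6 libraries correlated best with its own number, and the replicate block gave 36 higher and 5 lower. Causes were not tested, other than that leaving out a library leaves fewer samples.

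Of 76 other genes examined, 16 had a log2 fold change of another sign in at least 1 alternative, and none of these was called. With RLE size factors the value was 0.0127 for *Ager*. With upper-quartile scaling the values were 0.0448 for *Ager*, 0.0049 for *Ctsb*, 0.00488 for *Esam* and 0.00418 for *Ykt6*. With library size only the values were 0.11 for *Ager*, 0.00204 for *Cd68*, 0.0613 for *Ctsb*, 0.0627 for *Esam* and 0.0613 for *Ykt6*. With the 1 CPM filter the value was 0.00336 for *Ager*. With DESeq2 the value was 0.00139 for *Ager*. With limma-voom the values were 0.00839 for *Ager* and -0.0341 for *Bmp1*. With the replicate block the values were 0.013 for *Ager* and -0.0188 for *Bmp1*. In the 4 libraries without Y-linked reads the values were 0.24 for *Ager*, -0.0263 for *Bmp1*, 0.19 for *Cd68*, -0.00855 for *Cpd*, -0.14 for *Serpinh1* and 0.0392 for *Sftpc*. With the Y-linked covariate the values were 0.00809 for *Ager* and -0.0142 for *Bmp1*. With no expression filter the value was -0.0167 for *Bmp1*. With the age covariate the value was -0.0244 for *Bmp1*. Over left-out libraries the values spanned -0.18 to 0.19 for *Ager*, -0.26 to 0.24 for *Bmp1*, -0.22 to 0.0489 for *Cd68*, -0.0817 to 0.13 for *Chsy1*, -0.20 to 0.23 for *Cpd*, -0.0721 to 0.69 for *Cpxm2*, -0.15 to 0.0129 for *Esam*, -0.72 to 1.04 for *Hapln2*, -0.21 to 0.49 for *Lum*, -0.17 to 0.58 for *Ly75*, -0.00394 to 0.34 for *Polm*, -0.12 to 0.27 for *Serpinh1*, -0.24 to 0.024 for *Sftpc* and -0.0274 to 0.13 for *Tlk2*.

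Counts limit the least abundant relatives, such as *Acan* and *Lum*, more than the matrix genes, each with at least 267 counts in every library.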
